A study of Mus musculus with 9 samples.

Results

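The probes derived from human lincRNAs were 1217 of the 59709 transcript probes on a mouse lncRNA and mRNA array, and they were followed through 8 days of neuronal maturation and through oxygen-glucose deprivation (OGD). They were taken by name, as the non-control probes whose probe name begins with humanlincRNA. Each name carries a lincRNA number and a strand, so that humanlincRNA2330+ and humanlincRNA2330- are the probes for the plus and the minus strand of one number. In all, 609 numbers were represented, 608 of them by a probe on either strand and 1 by a minus-strand probe alone, which gave 608 plus and 609 minus probes. Each probe had 1 spot per array. The sources used here say that the probes derive from human lincRNAs but not whether their sequence is human or that of the matching mouse region. Probe sequences, genome positions and gene names were not used here, so the members are described by their signal.

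The cells were primary cortical neurons of E15 Swiss albino mouse embryos, grown in Neurobasal medium with B27 supplement, and 9 single-colour arrays were run with 1 array per condition. On the maturation arrays the cultures were harvested on Day 2, Day 4, Day 6 or Day 8. For the OGD arrays, Day 6 cultures spent 2, 4, 6 or 8 hr at 0.1% oxygen in glucose-free salt solution and then 24 hr of reperfusion in medium without B27. The 0 hr OGD cultures went through the same handling, reperfusion and loss of B27 included, without the deprivation. According to the methods, RNA of 4 separate experiments was pooled on each array of the maturation series and of 0, 2 and 4 hr OGD. The 6 and 8 hr arrays were assigned from their labels only, and what their RNA was pooled from is not given in the sources used here. The paper reported nearly pure neuronal cultures from staining for neuronal, progenitor and glial markers. It also measured neuronal and glial microRNAs in the maturing cultures and at 0, 2 and 4 hr OGD. On these arrays the neuronal identity of the cultures was not checked, because no table used here pairs the probes with gene names.

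Long intergenic non-coding RNAs (lincRNAs) are transcribed from stretches of the genome that lie between protein-coding genes. Many are spliced and polyadenylated as mRNAs are, yet they are usually less abundant and more restricted to particular tissues, the brain among them. Their sequences have changed faster in evolution than those of coding exons, and a human lincRNA often has a mouse counterpart at the corresponding position with limited sequence similarity. Some are known to act on chromatin, on transcription of neighbouring genes or as binding partners of proteins and miRNAs, while most have no assigned function. The study profiled maturation as a setting in which neurons develop and survive, and OGD as a setting of ischaemic injury.

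A transcript counted as detected on an array when its spot was well above background by the scanner software's own test, which sets the spot against its background. Signals are given as quantile-normalised log2 intensities. A change is given as the signal log ratio (SLR), which is the log2 signal of one array minus that of its reference array. An SLR above 1 or below -1 was taken as a change past the threshold and is called higher or lower here. With 1 array per condition there was no replicate check on any SLR. The error given after an SLR is the one the scanner software models for the pair of spots, and it covers neither culture nor hybridisation.

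The arrays differed in background. On the Day 4 array 54.4% of the spots of negative control probes passed as well above background, against 0.833% to 9.58% on the other 8 arrays. The 95th percentile of the negative control signal was 95.8 on Day 4 and between 11.2 and 29.1 elsewhere. Day 2 and Day 4 belonged to 1 scan and the other 7 arrays to another, so that Day 6 or Day 8 against Day 2 cannot be told apart from the scan. None of the member spots was saturated, and 3 were outliers that were left out, 1 each on Day 6, Day 8 and 6 hr OGD.

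Most members were near background in these neurons. Of the 1217 members, the numbers well above background over Days 2, 4, 6 and 8 were 336 (27.6%), 654 (53.7%), 309 (25.4%) and 336 (27.6%). Over 0, 2, 4, 6 and 8 hr OGD they were 392 (32.2%), 404 (33.2%), 419 (34.4%), 251 (20.6%) and 269 (22.1%). All transcript probes passed more often on every one of the 9 arrays, from 33.1% at 8 hr OGD to 71.6% on Day 4. The mouse lincRNA probes of the same array, 691 in number, passed at shares close to those of the members, between 21.7% at 6 hr OGD and 57.9% on Day 4. Mouse lincRNA exon probes, of which there were 3457, passed more often, between 30.9% and 67.1%. The high share on Day 4 moved together with the background of that array. Set against the 95th percentile of the negative control probes of its own array, the share of members above was 12.8% on Day 4, the lowest of the 9, and 22.3% to 30.5% elsewhere. For all transcript probes Day 4 was likewise the lowest, at 28.1%, with 39.5% to 45.1% elsewhere. The contribution of the background to the Day 4 values was not tested beyond this.

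**Figure D1:**
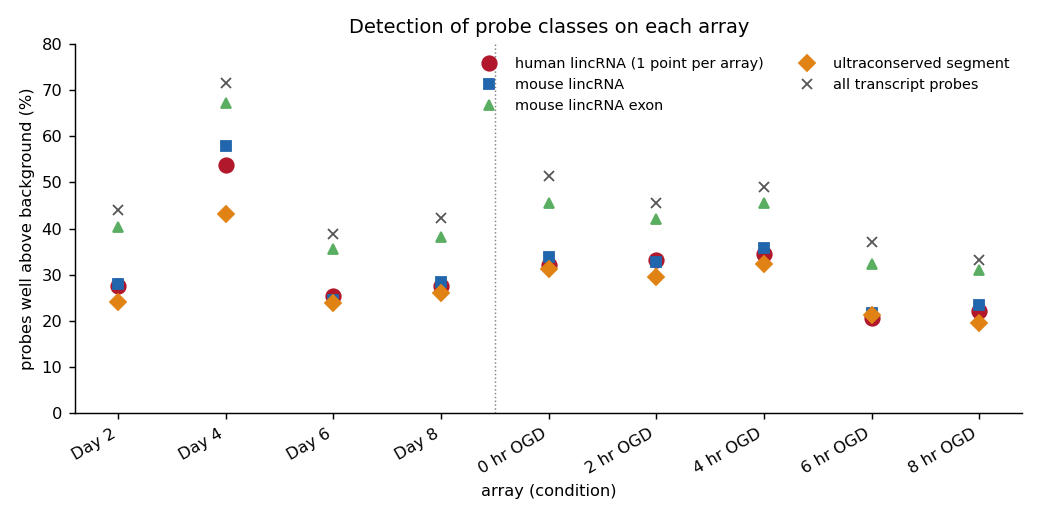
Share of probes well above background (%, vertical axis) on each of the 9 arrays (horizontal axis), 1 point per probe class and array. The human lincRNA probes lie between 20.6% at 6 hr OGD and 53.7% on Day 4, close to the mouse lincRNA probes and below all transcript probes on every array.

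Of the members, 481 (39.5%) were well above background on none of the 9 arrays, against 22.3% of all transcript probes. At the other end 217 (17.8%) passed on all 9 arrays, against 29.2% of all transcript probes. A further 260 members (21.4%, against 19.6% of all transcript probes) passed on a single array, and for 202 of these the array was Day 4. In all, 519 members (42.6%) passed on 1 to 8 arrays, with between 24 and 70 on each number of arrays from 2 to 8. Over the 8 arrays other than Day 4, 683 members (56.1%) passed on none and 217 on all. Over the maturation series 682 members (56.0%) passed on at least 1 of the 4 arrays and 269 (22.1%) on all 4, against 73.8% and 34.7% of all transcript probes. With Day 4 left out the former count was 403. Over the OGD series 502 members (41.2%) passed on at least 1 of the 5 arrays and 220 (18.1%) on all 5, against 58.2% and 30.0% of all transcript probes.

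Where they were detected, the members were dimmer than the other probes, though not by much. Among probes well above background, the median log2 signals of the members over Days 2, 4, 6 and 8 were 5.87, 4.21, 5.95 and 5.76. The other transcript probes had medians of 6.15, 4.85, 6.48 and 6.26 on the same arrays. In the OGD series the members had medians of 5.22, 5.73, 5.53, 6.10 and 6.55 at 0, 2, 4, 6 and 8 hr, against 5.75, 6.06, 5.87, 6.59 and 6.88 for the others. The members' median was thus the lower on each of the 9 arrays, by 0.28 to 0.64 on the log2 scale. Without a detection filter the members' median minus that of the others was -1.42 to -1.15 on the 7 arrays other than 6 and 8 hr OGD. On those 2 arrays the members' unfiltered median lay at the lowest normalised value, which many dim probes share, and no gap is given there. These medians compare classes of probes and do not rank single transcripts, since probes differ in affinity. Between 27 and 37 members per array had a log2 signal above 10.

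The 8 members with the highest mean log2 signal over the 9 arrays, among the 217 detected on all of them, were humanlincRNA2330+ (15.83), humanlincRNA0847- (15.82), humanlincRNA2199+ (15.44), humanlincRNA2296+ (14.76), humanlincRNA2159- (14.24), humanlincRNA0318- (14.15), humanlincRNA0065- (13.73) and humanlincRNA0284+ (13.32). The log2 signal of humanlincRNA2330+ was 15.42, 15.92, 16.03 and 15.70 on Days 2, 4, 6 and 8 and 15.62, 15.74, 16.05, 15.82 and 16.14 at 0, 2, 4, 6 and 8 hr OGD. For humanlincRNA0847- the 9 values lay between 15.48 on Day 2 and 16.03 at 4 hr OGD. Those of humanlincRNA2199+ lay between 15.11 on Day 2 and 15.64 on Day 6. These 3 members moved over ranges of 0.72, 0.55 and 0.53 across the whole study, while humanlincRNA2159-, humanlincRNA0318-, humanlincRNA0065- and humanlincRNA0284+ had ranges of 0.86, 1.19, 1.44 and 1.38. By contrast humanlincRNA2296+ had log2 signals of 16.01 on Day 2 and 16.00 on Day 4, then 14.89 on Day 6 and 14.51 on Day 8, and 13.79, 14.62, 14.49, 14.12 and 14.37 over the OGD series. It had the widest range of the 8, at 2.22, and it was higher on both arrays of the first scan than on all 7 of the second. Over the 217 members detected on every array the median range was 1.44, and over all 17431 such transcript probes it was 1.38.

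On Day 4 relative to Day 2 most members detected on both arrays had a negative SLR. A positive one was found in 20.7% of them, against 33.6% of all probes. Of 324 members well above background on both arrays, 11 (3.40%) had an SLR above 1 and 100 (30.9%) an SLR below -1, against a background of 12.1% higher and 21.8% lower over all transcript probes. The median SLR of the members was -0.59 with quartiles of -1.13 and -0.10, and that of all probes was -0.36. Other non-coding classes fell to a similar extent. Mouse lincRNA probes had a median of -0.57, with 4.32% higher and 27.6% lower. Mouse lincRNA exon probes had a median of -0.50, with 10.7% higher and 27.7% lower. Probes for ultraconserved segments, which are stretches identical between mammalian genomes, had a median of -0.75, with 4.11% higher and 33.8% lower. Both arrays belonged to the first scan. The fall was widest among dim members, with a median of -0.84 for a mean log2 signal under 5 and 0.06 above 10. The other probes had medians of -0.91 and -0.09 in these ranges. In between, the members were lower than the others, with medians of -0.70 and -0.34 from 5 to 6, -0.55 and -0.24 from 6 to 8, and -0.22 and -0.14 from 8 to 10. The share below SLR -1 was 31.6% of the members and 20.8% of the others from 5 to 6, and 23.9% and 14.8% from 6 to 8. With a background correction by normexp the members' median was -0.22 beside -0.16 for all probes, with 5 members higher (1.54%, all probes 5.60%) and 10 lower (3.09%, all probes 2.39%). With 75th-percentile scaling it was -0.55 beside -0.48, with 11 higher (3.40%, all probes 8.84%) and 59 lower (18.2%, all probes 18.6%). Over members above the negative probes on both arrays it was -0.30 beside -0.07 for all such probes. Of these members 9 were higher (6.43%, all such probes 19.1%) and 20 lower (14.3%, all such probes 7.95%).

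The filter bears on this shift, since the lowest detected log2 signal was 4.13 on Day 2 and 2.31 on Day 4. Over the 666 members detected on at least 1 of the 2 arrays the median SLR was -0.14 beside -0.04 for all such probes, with 117 members higher (17.6%, all probes 22.4%) and 139 lower (20.9%, all probes 16.4%). With no filter the median of the 1217 members was -0.12 beside -0.09 for all probes. Of the members 117 were then higher (9.61%, all probes 16.2%) and 187 lower (15.4%, all probes 14.9%).

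From Day 2 to Day 6 and Day 8 few members changed. On Day 6 relative to Day 2, 17 (6.12%) of 278 members were higher and 10 (3.60%) were lower, where 5.70% and 4.14% of all probes were called. On Day 8 relative to Day 2, 11 (3.87%) of 284 members were higher and 10 (3.52%) lower, against 5.52% and 5.00% of all probes. Taken over all signal ranges, the members' shares lay near the background in both comparisons. On Day 6, 6 of 29 members with a mean log2 signal above 10 were higher (20.7%, other probes 3.51%). Their median SLR was 0.54, beside 0.03 for the other probes. The members' share higher was below that of the others from 5 to 6 (3.49% and 8.18%) and from 6 to 8 (3.49% and 5.63%). These differences were not tested. Median SLRs were 0.05 on Day 6 and -0.02 on Day 8. Scaling to the 75th percentile raised the median of all probes on Day 6 from 0.08 to 0.25. It gave 27 members higher there (9.71%, all probes 10.4%) and 6 lower (2.16%, all probes 2.91%). Within the second scan, Day 8 relative to Day 6, 5 of 286 members (1.75%) were higher and 5 (1.75%) were lower, with a background of 2.01% and 1.11% and a members' median of -0.15.

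Among the 269 members detected on all 4 maturation arrays, 10 (3.72%) were past SLR 1 upwards on Day 8 with the same sign on Day 6, and 10 (3.72%) were past it downwards, where 4.74% and 4.57% of all probes detected on these arrays met the same rule. The largest rise belonged to humanlincRNA1046+, whose log2 signal was 10.36, 11.15, 11.92 and 11.73 on Days 2, 4, 6 and 8, with an SLR of 1.36 (error 0.20) on Day 8. In the case of humanlincRNA2246- the 4 values were 6.34, 6.55, 8.39 and 7.61, with an SLR of 2.05 (error 0.22) on Day 6 and 1.28 (error 0.22) on Day 8. Both were lower on the arrays of the first scan than on either of the second. For humanlincRNA2028-, humanlincRNA1485- and humanlincRNA2438- the SLRs on Day 8 were 1.23, 1.18 and 1.17, from log2 signals of 4.60, 4.17 and 4.25 on Day 2. These were dim members with errors of 0.32 to 0.37.

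The largest falls from Day 2 to Day 8 included one of the brightest members. In humanlincRNA0218- the log2 signal was 7.68, 3.09, 5.30 and 4.55 on Days 2, 4, 6 and 8, and the SLR on Day 8 was -3.13 (error 0.32). That of humanlincRNA1297+ was 7.51, 2.48, 4.75 and 5.07, with an SLR of -2.44 (error 0.38). In both members the Day 2 value was the highest and the Day 4 value the lowest. The bright humanlincRNA2296+ described above had an SLR of -1.50 (error 0.20), humanlincRNA1003- one of -1.62 (error 0.22) and humanlincRNA0183+ one of -1.49 (error 0.31). The last of these stood at 6.19, 4.63, 5.92 and 4.70 on Days 2, 4, 6 and 8.

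After OGD most members detected on both arrays had a positive SLR relative to the 0 hr OGD array. At 2 hr, 102 of 339 members (30.1%) were higher and 19 (5.60%) lower, where 12.2% and 8.29% of all probes were called. At 4 hr, 71 of 342 (20.8%) were higher and 19 (5.56%) lower, against 8.33% and 7.09%. At 6 hr, 13 of 238 (5.46%) were higher and 14 (5.88%) lower, against 3.70% and 4.00%. At 8 hr, 98 of 261 (37.5%) were higher and 9 (3.45%) lower, against 17.5% and 9.86%. The median SLR of the members was 0.72, 0.64, 0.26 and 0.87 at 2, 4, 6 and 8 hr, and that of all probes was 0.05, 0.00, 0.05 and 0.16. A positive SLR was found in 81.4%, 76.6%, 69.3% and 86.6% of the members at the successive times, and in 49.8% to 55.1% of all probes. The 4 comparisons share their reference array and are not independent of each other. In these cultures fewer cells of a type and less RNA per cell cannot be told apart. With normexp the members' medians were 0.29, 0.25, 0.11 and 0.41, beside 0.02, 0.00, 0.02 and 0.08 for all probes. The members higher then numbered 13, 21, 6 and 29 at 2, 4, 6 and 8 hr (3.83%, 6.14%, 2.52% and 11.1%, against 2.01%, 2.48%, 0.756% and 6.07% of all probes). Those lower numbered 9, 10, 9 and 5 (2.65%, 2.92%, 3.78% and 1.92%, against 2.34%, 2.23%, 1.94% and 4.15%). With 75th-percentile scaling the count at 6 hr was 30 higher (12.6%, all probes 6.04%) and 13 lower (5.46%, all probes 4.28%).

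The filter mattered here too, most at 6 and 8 hr. At 8 hr, 131 members were detected at 0 hr only and 8 at 8 hr only, and the lowest detected log2 signal was 3.68 and 5.06 on these arrays. The detected share went from 32.2% at 0 hr to 22.1% at 8 hr for the members, and from 51.4% to 33.1% for all transcript probes. Over members detected on at least 1 of the 2 arrays, 109 of 400 were higher at 8 hr (27.3%, all probes 12.5%) and 49 lower (12.3%, all probes 20.2%), with a median of 0.57. At 6 hr, 26 of 405 were higher (6.42%, all probes 3.94%) and 60 lower (14.8%, all probes 11.2%), with a median of 0.07. At 6 hr the members past SLR 1 downwards thus outnumbered those upwards by more than with detection on both arrays, where 13 were higher and 14 lower.

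**Figure D2:**
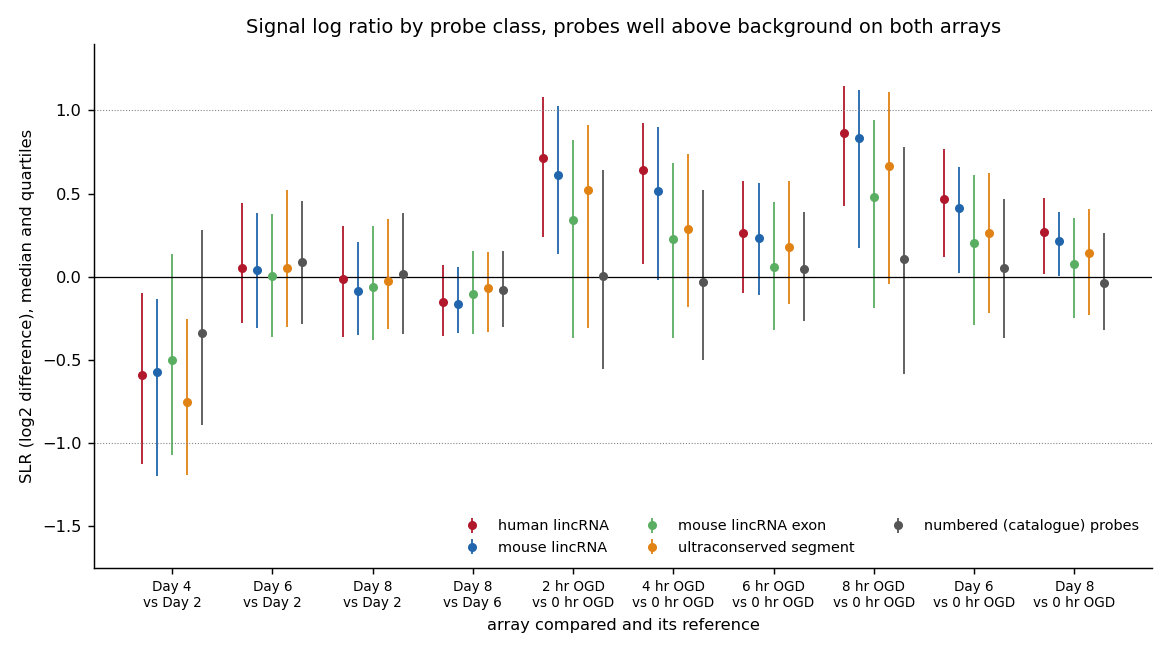
Median SLR (log2 difference, points) with quartiles (bars) for 5 classes of probe in 10 comparisons of single arrays, over probes well above background on both arrays compared. Dotted lines mark SLR 1 and -1; the human lincRNA probes have medians of 0.72, 0.64, 0.26 and 0.87 at 2, 4, 6 and 8 hr OGD relative to 0 hr OGD, and of 0.47 and 0.27 on Day 6 and Day 8 relative to the same array.

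The size of this shift depended on the reference array. Day 6 and Day 8 neurons, which were never deprived and were scanned with the OGD series, also had positive members' median SLRs relative to 0 hr OGD. On Day 6 relative to 0 hr OGD the members' median SLR was 0.47, with 31 of 298 (10.4%) higher and 16 (5.37%) lower against 4.73% and 4.85% of all probes. On Day 8 relative to 0 hr OGD it was 0.27, with 11 of 318 (3.46%) higher and 2 (0.629%) lower against 1.54% and 1.36%. When Day 6 was the reference, the members' medians at 2, 4, 6 and 8 hr OGD were 0.21, 0.07, -0.16 and 0.37, beside -0.01, -0.01, -0.03 and 0.12 for all probes. When Day 8 was the reference, they were 0.40, 0.26, -0.030 and 0.52, beside 0.07, 0.05, 0.09 and 0.17. Against Day 6 the members past SLR 1 upwards numbered 14 (4.68%), 4 (1.32%), 1 (0.424%) and 14 (5.65%) at 2, 4, 6 and 8 hr, where 2.08%, 1.85%, 2.86% and 4.82% of all probes were called. Downwards they numbered 5 (1.67%), 6 (1.99%), 5 (2.12%) and 1 (0.403%), where 3.36%, 4.49%, 1.31% and 5.94% of all probes were called. Against Day 8 those upwards were 26 (8.39%), 15 (4.81%), 2 (0.858%) and 26 (10.3%), beside 3.29%, 2.83%, 2.69% and 6.04% of all probes. Those downwards were 13 (4.19%), 9 (2.88%), 4 (1.72%) and 1 (0.395%), beside 4.68%, 5.18%, 2.76% and 4.62%. At 6 hr the share of members called higher was below the background against both references, and at 4 hr it was below it against Day 6. The median at 2, 4 and 8 hr was thus above 0 against all 3 undeprived arrays, while at 6 hr it turned below 0 against Day 6 and Day 8. The Day 6 and Day 8 cultures kept B27 and had no reperfusion, so they are not handling controls for the OGD arrays.

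At 2 and 8 hr OGD the members' median lay above 0 in each signal range. At 2 hr the members' median SLR was 0.66 for a mean log2 signal under 5, 0.74 from 5 to 6, 0.65 from 6 to 8, 0.80 from 8 to 10 and 0.78 above 10. The other transcript probes had 0.23, 0.04, -0.03, -0.19 and -0.17 in the same ranges. At 8 hr the members had 1.09, 0.75, 0.75, 1.01 and 0.87, and the others 1.00, 0.28, -0.03, -0.18 and -0.14. Members and others therefore lay furthest apart among bright probes, although only 37 and 31 members fell into the upper pair of ranges at 8 hr, and at 8 hr they lay close together among dim ones. At 6 hr the members were not set apart below 8, with medians of 0.43 under 5, 0.11 from 5 to 6 and 0.07 from 6 to 8, beside 0.45, 0.06 and 0.01 for the other probes. Their median there was 0.45 from 8 to 10 and 0.54 above 10, beside -0.07 and -0.10.

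**Figure D3:**
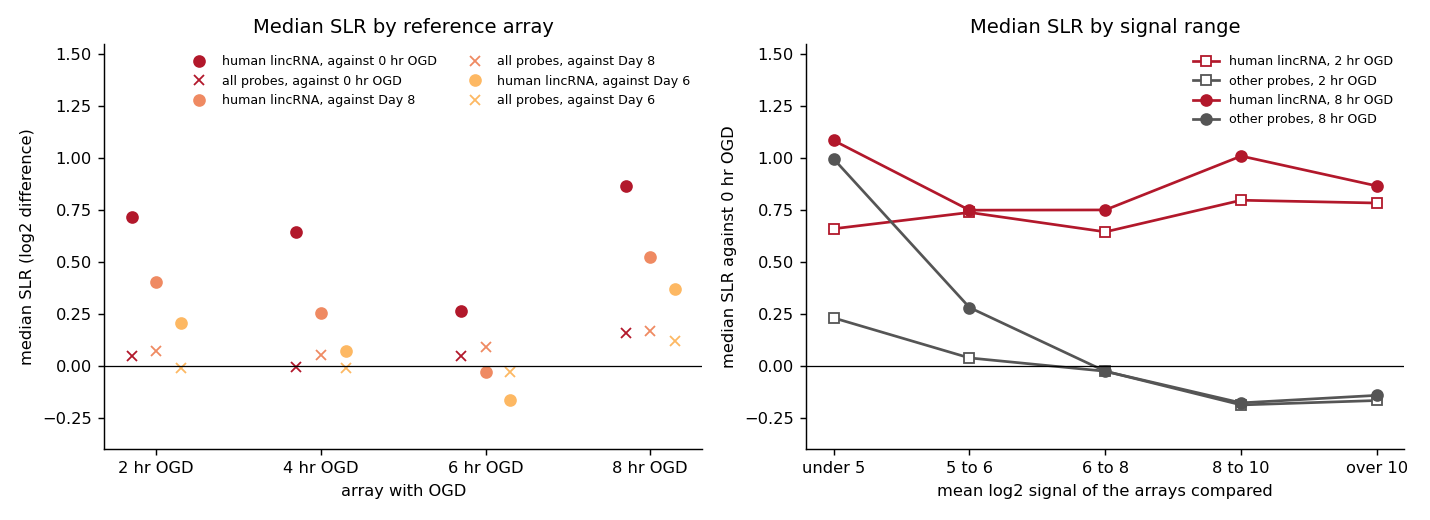
Left, median SLR (log2 difference) of the human lincRNA probes (circles) and of all transcript probes (crosses) on each array with OGD against each undeprived array of the same scan; the members' median at 8 hr is 0.87 against 0 hr OGD, 0.52 against Day 8 and 0.37 against Day 6. Right, median SLR at 2 hr (open squares) and 8 hr OGD (filled circles) against 0 hr OGD by the mean log2 signal of the arrays compared, for human lincRNA probes (red) and all other transcript probes (grey); at 8 hr the members stay between 0.75 and 1.09 while the others fall from 1.00 to -0.18.

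Other non-coding classes on the array moved in the same direction. The mouse lincRNA probes had median SLRs of 0.61, 0.52, 0.23 and 0.84 at 2, 4, 6 and 8 hr OGD relative to 0 hr OGD. Probes for ultraconserved segments had 0.52, 0.29, 0.18 and 0.66. Mouse lincRNA exon probes had 0.34, 0.22, 0.06 and 0.48, and the numbered catalogue probes that make up most of the array had 0.00, -0.03, 0.04 and 0.10. The human lincRNA probes had the highest median of these 5 classes at each of the 4 times. Quartiles of the human and the mouse lincRNA probes overlapped over nearly their whole width, from 0.24 to 1.08 and from 0.14 to 1.03 at 2 hr, and the difference between these classes was not tested. On Day 6 and Day 8 relative to 0 hr OGD the order of the human lincRNA, mouse lincRNA and numbered probes was the same, with 0.47, 0.41 and 0.05 on Day 6 and 0.27, 0.22 and -0.04 on Day 8.

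The array on which a member reached its extreme also differed. Of the 217 members detected on all 9 arrays, 70 (32.3%) were highest at 8 hr OGD and 43 (19.8%) at 2 hr OGD, against 18.2% and 10.8% of all transcript probes detected throughout. In all, 149 of the 217 (68.7%) were highest on an array with OGD, against 46.7% of all such probes. The lowest value lay on Day 4 for 112 members (51.6%) and at 0 hr OGD for 61 (28.1%), against 45.6% and 16.7%. The 0 hr OGD array was the highest for 21 members (9.68%), against 22.6% of all such probes.

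Among the 220 members detected on all 5 OGD arrays, 78 (35.5%) were past SLR 1 upwards at 8 hr and 8 (3.64%) downwards, against 15.9% and 10.5% of all probes detected on these 5 arrays. The largest rise was that of humanlincRNA1003-, with log2 signals of 6.11, 7.55, 7.71, 6.87 and 7.98 at 0, 2, 4, 6 and 8 hr and an SLR of 1.86 (error 0.21) at 8 hr. For humanlincRNA1901- the values were 7.35, 8.85, 8.22, 7.45 and 9.08, with an SLR of 1.73 (error 0.21). In humanlincRNA1739- they were 6.29, 7.75, 7.20, 6.30 and 7.94, with an SLR of 1.66 (error 0.21). In these 3 members the 0 hr value was the lowest and the 6 hr value the next lowest. The SLRs at 8 hr of humanlincRNA1093+ and humanlincRNA0029- were both 1.63, with errors of 0.21 and 0.26. Against Day 6 in place of 0 hr OGD the SLRs at 8 hr were 0.89 for humanlincRNA1003-, 1.17 for humanlincRNA1901-, 0.90 for humanlincRNA1739-, 1.00 for humanlincRNA1093+ and 1.01 for humanlincRNA0029-. Against Day 8 they were 1.73, 1.26, 1.20, 1.41 and 0.79. These values reuse the 8 hr array, and the members were chosen by their SLR against the 0 hr array. That choice favours smaller SLRs against any other reference, so the values are a description. They were smaller than the SLRs against 0 hr OGD in 10 of the 10 cases. A single member (0.455%, against 0.474% of all such probes), humanlincRNA2149-, was past SLR 1 upwards at all 4 times, with log2 signals of 4.32 at 0 hr and 6.29, 5.41, 5.35 and 5.75 at 2, 4, 6 and 8 hr. On the undeprived arrays of Day 2, Day 6 and Day 8 it stood at 5.90, 5.27 and 5.52, so that the 4 and 6 hr values lay below that of Day 8.

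At 2, 4, 6 and 8 hr alike, 7 of the 220 members (3.18%) were past SLR 1 downwards, against 1.36% of all such probes. The 4 comparisons share the 0 hr array, so a high value there lowers all of them together. These members were humanlincRNA0406+, humanlincRNA0997+, humanlincRNA1006-, humanlincRNA1094-, humanlincRNA1172+, humanlincRNA1364+ and humanlincRNA1921+. The log2 signal of humanlincRNA1364+ was 9.10 at 0 hr and 6.92, 7.22, 7.20 and 7.29 afterwards, with SLRs of -2.18, -1.88, -1.90 and -1.81 (error 0.21 each). That of humanlincRNA1006- was 10.71 at 0 hr and then 8.68, 8.92, 8.92 and 9.35. That of humanlincRNA0406+ was 9.13 at 0 hr and then 7.51, 7.91, 7.98 and 8.06. Over the 7 members the SLR lay between -2.18 and -1.62 at 2 hr and between -1.81 and -1.07 at 8 hr.

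On the maturation arrays, which this selection did not use, all 7 members were lower on Day 4 than on Day 2, with SLRs of -2.36 to -1.26. On Day 8 relative to Day 6 their SLRs were positive, at 0.26 to 0.85. Of all members detected on the arrays compared, 20.7% had a positive SLR on Day 4 relative to Day 2 and 31.1% on Day 8 relative to Day 6. Of all probes 33.6% and 39.9% had one. The values that follow reuse the arrays of the selection and are a description. The 0 hr OGD array was the highest of the 9 in each, and Day 8 relative to it had SLRs of -1.15 to -0.35. Relative to Day 6 the 2 hr OGD SLRs were -0.85 to -0.12, and the 8 hr SLRs, from -0.40 to 0.44, spanned 0. Relative to Day 8 they were -1.28 to -0.78 at 2 hr and -0.72 to -0.22 at 8 hr. Whether the probes of these 7 members share sequence was not tested.

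**Figure D4:**
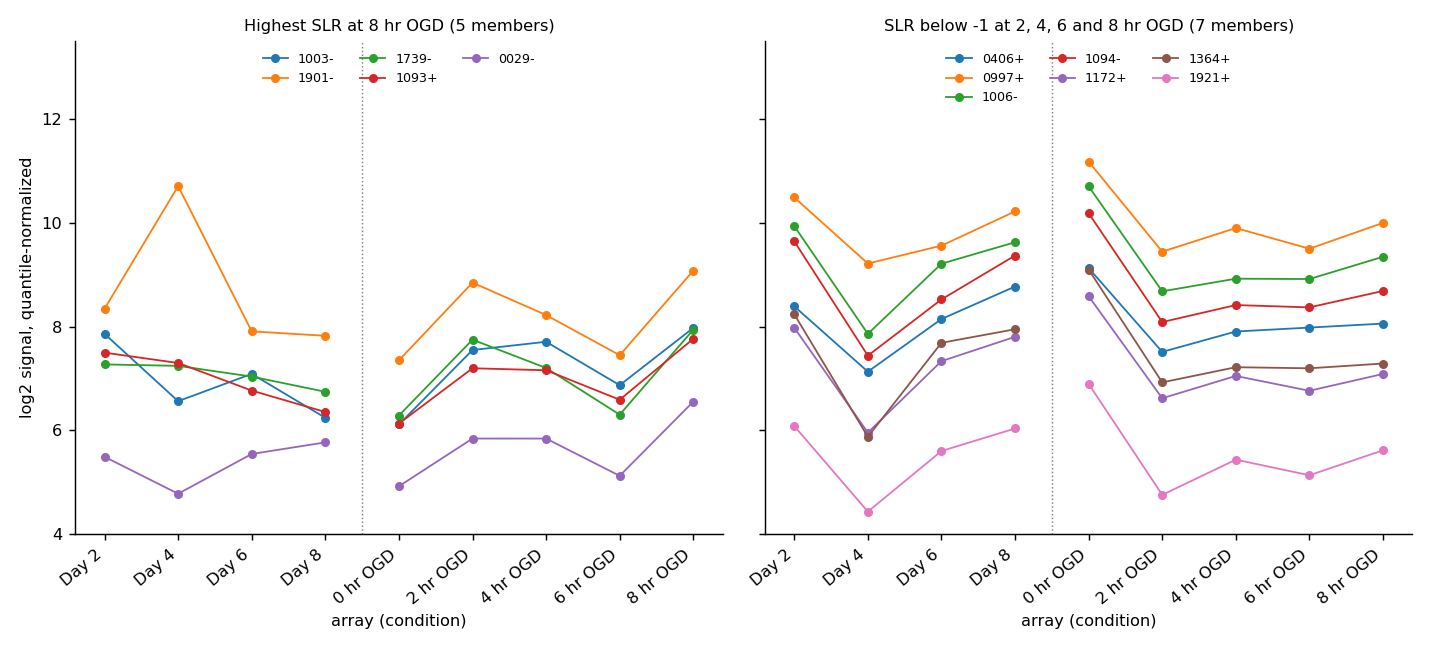
Quantile-normalised log2 signal (vertical axis) on the 9 arrays (horizontal axis; the dotted line divides the maturation from the OGD series), 1 line per member, labelled by lincRNA number and strand. Left, the 5 members with the highest SLR at 8 hr OGD, of which humanlincRNA1003- goes from 6.11 at 0 hr to 7.98 at 8 hr; right, the 7 members below SLR -1 at all 4 times, each with its highest value at 0 hr OGD and its lowest on Day 4.

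The 4 arrays with OGD were tested as a group against the 3 undeprived arrays of the same scan (Day 6, Day 8 and 0 hr OGD), and trends over days or hours were not tested. The groups mix durations of OGD on one side, and days and handling on the other. Of the 363 members tested, 0 were called higher and 1 lower by limma at an adjusted p under 0.05, where 0.0558% of all 26860 probes were called higher and 0.547% lower. With an intensity trend in eBayes the members called were again 0 higher and 1 lower, with 53 of all probes called higher and 199 lower. At an unadjusted p under 0.05 there were 63 members, 46 higher and 17 lower, which is 12.7% and 4.68% of the members. Over all probes the shares were 8.24% higher and 9.12% lower, and in both directions together 17.4% of the members and 17.4% of all probes were under this p. The median difference of the members was 0.31 and that of all probes 0.02, and 76.0% of the members were positive against 51.7% of all probes. Without the 0 hr OGD array the members' median was 0.17, and without the 6 hr array it was 0.45 with 2 members called higher, where 45 of all 26860 probes were called higher and 213 lower. These were humanlincRNA1114- (difference 1.76, limma adjusted p = 0.0155) and humanlincRNA2252+ (difference 1.61, limma adjusted p = 0.0476), named here after their values were seen. Their means on the undeprived arrays were 3.22 and 3.73. The lowest detected log2 signal was 4.53 on Day 6, 4.34 on Day 8 and 3.68 at 0 hr OGD. The differences are thus set against values near or under the limit of detection, and no conclusion is drawn from them. In 31 of 362 members (8.56%) all 4 arrays with OGD lay above all 3 without, and in 15 (4.14%) below, beside 7.59% and 8.97% of all probes. Both shares were near or below the background.

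The member called by limma was humanlincRNA1166+. Its log2 signal was 5.59 on Day 6, 6.17 on Day 8 and 6.36 at 0 hr OGD, and 4.06, 4.62, 4.57 and 4.85 at 2, 4, 6 and 8 hr OGD. The groups did not overlap, and the difference was -1.52 (SE 0.27, limma adjusted p = 0.0478, lower on 4 of 4 arrays). It was not well above background at 6 and 8 hr, so that the values there are near the limit of detection. On Day 2 and Day 4 it stood at 5.16 and 3.03. The call was lost without Day 8 or 0 hr OGD (differences of -1.45 and -1.36, limma adjusted p = 0.226 each), and without the 2, 4 or 6 hr array (differences of -1.36, -1.55 and -1.53, limma adjusted p = 0.120, 0.129 and 0.0554).

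Several members were well above background on one side of a comparison only. On Day 6 and Day 8 but on neither Day 2 nor Day 4, 3 members were detected (0.247%, against 0.233% of all probes), which were humanlincRNA1230-, humanlincRNA0629+ and humanlincRNA1612-. Their log2 signals were 5.55 and 5.41, 4.79 and 5.93, and 4.79 and 5.01 on Day 6 and Day 8. The bounds on the rise from Day 2 to the mean of Day 6 and Day 8 were 2.55-fold, 2.35-fold and 1.70-fold. They were set against the member's Day 2 value or, where that was dimmer, the dimmest detected probe of that array. With Day 4 averaged in, whose dimmest detected probe lay at 2.31 beside 4.13 on Day 2, the bounds were 4.79-fold, 4.41-fold and 3.20-fold. All 3 were also detected at 0, 2 and 4 hr OGD. On Day 2 and Day 4 only, within maturation, 34 members were detected (2.79%, against 5.52% of all probes), led by humanlincRNA1273+ with log2 signals of 5.69 and 7.12. The mean of these was at least 3.92-fold above that of Day 6 and Day 8, or at least 2.39-fold from Day 2 alone. This member was detected on no array of the second scan. The next, humanlincRNA2125-, stood at 4.74 and 6.35. Its mean was at least 2.16-fold higher, or 1.23-fold from Day 2 alone, and it too was seen on the first scan alone.

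In the OGD series 1 member, humanlincRNA1133-, was detected at 2, 4, 6 and 8 hr but not at 0 hr (0.0822%, against 0.117% of all probes). Its log2 signals at 2 to 8 hr were 4.20, 4.54, 4.91 and 5.63, and their mean was at least 2.21-fold higher than at 0 hr. It was also above background on Day 4, at 3.19, and on Day 6, at 5.25. At 0 hr only, 41 members were detected (3.37%, against 5.60% of all probes). Foremost among them was humanlincRNA2473+, with a log2 signal of 6.19 at 0 hr OGD and 5.67 on Day 8, at least 3.46-fold higher at 0 hr than the mean of the arrays with OGD. For humanlincRNA1907+, humanlincRNA0296+ and humanlincRNA1362- the bounds were 1.68-fold, 1.54-fold and 1.45-fold. Fewer probes of all kinds passed at 6 and 8 hr than at 0 hr, and these one-sided shares of the members lay below those of all probes.

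Detection on all 9 arrays was uncommon for a member of either strand, at 17.8% of the members, and few lincRNA numbers had it on both strands. Whether the strands of one number were detected together more or less often than this share implies was not tested. Of the 608 numbers with a probe on either strand, 29 had both strands well above background on all 9 arrays, 78 the plus strand only and 81 the minus strand only. In 81 of these 159 numbers the other strand was detected on no array at all. Neither strand was detected on any array in 97 numbers, and in 199 numbers neither was detected once Day 4 was set aside. The strands were about equally represented, with 107 plus and 110 minus members on every array. Their median SLRs at 8 hr OGD were 0.89 over 132 plus and 0.84 over 129 minus members. Of the 132 plus members 55 were higher and 7 lower there, and of the 129 minus members 43 and 2, where 17.5% and 9.86% of all probes were called. On Day 8 relative to Day 2, 2 of 150 plus members were higher and 6 lower, and 9 of 134 minus members were higher and 4 lower. Of all probes 5.52% were higher and 5.00% lower in that comparison. The difference between the strands was not tested.

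Within the 29 pairs detected on every array, the SLRs of the strands showed little relation to each other. At 8 hr relative to 0 hr OGD Pearson's r between the strands was 0.02 and Spearman's rho 0.08, as a description over 29 pairs from the same arrays. Both strands were above SLR 1 in 2 pairs, 1 strand alone was past it in 15, and in 2 the strands were past it in opposite directions. Over the 8 comparisons r lay between -0.09 and 0.08. The median gap between the strands at 8 hr was 0.63 on the log2 scale.

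**Figure D5:**
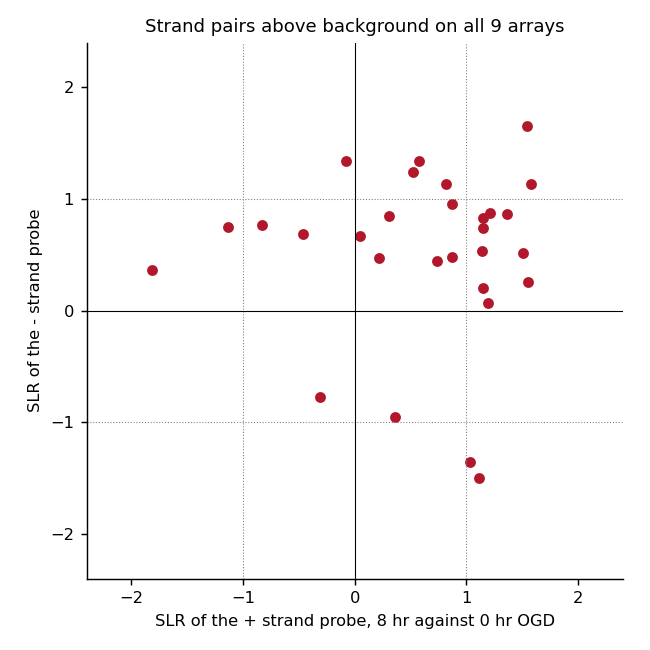
SLR at 8 hr relative to 0 hr OGD of the plus-strand probe (horizontal axis) and of the minus-strand probe (vertical axis), 1 point for each of the 29 lincRNA numbers with both strands above background on all 9 arrays. Dotted lines mark SLR 1 and -1; most points lie above 0 on both axes, with no trend between them (r = 0.02).

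The pairs with the highest mean signal show how the strands parted. In pair 0318 the plus strand had log2 signals of 12.68, 13.65, 13.81, 13.32 and 13.83 at 0, 2, 4, 6 and 8 hr OGD, and the minus strand 13.56, 14.52, 13.99, 14.16 and 14.39. Both were lowest at 0 hr, but the SLR at 4 hr was 1.13 on the plus strand and 0.43 on the minus strand (error 0.20 each). For pair 0520 the SLR at 8 hr was 1.20 on the plus and 0.07 on the minus strand, and for pair 2397 it was 1.36 and 0.87. Among the pairs named here, pair 2296 was the most unequal in its course through maturation. Its plus strand had an SLR of -1.50 (error 0.20) on Day 8 relative to Day 2, while its minus strand, at 6.09, 4.96, 5.85 and 5.81 on Days 2, 4, 6 and 8, had one of -0.27 (error 0.24). After 8 hr OGD it was the minus strand that was past the threshold, with an SLR of 1.34 beside 0.58.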

How the data were processed

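The authors deposited, for each of the 9 arrays, the scanner intensity of every spot, background-corrected by Feature Extraction 11.0.1.1 (array grid on mm9), with its modelled error and flags for background, outliers and saturation, together with a table of processed intensity values that the methods describe as quantile-normalised in GeneSpring. That table lists 406 of the members and served as an alternative. Log2 of the deposited processed intensity was quantile-normalised over the 9 arrays with limma 3.58.1 in R 4.3.3, outlier spots left out and spots of one probe averaged. Counting used pandas 2.3.3 with scipy 1.17.1 and numpy 2.4.6 under Python 3.11.15, and plots were drawn in matplotlib 3.10.9. SLRs were counted over probes well above background on both arrays, with a threshold of 1. The 4 arrays with OGD were compared with the 3 undeprived arrays of the same scan by limma (lmFit, eBayes) over transcript probes well above background on at least 3 of these 7 arrays, with Benjamini-Hochberg adjustment over all of them. The scripts were tested on simulated data. Precision was limited by how few arrays there were.

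The named members were the 8 brightest of those detected on all arrays, the 5 largest rises and falls on Day 8 and at 8 hr OGD, those past SLR 1 the same way at all 4 OGD times, up to 4 detected on one side only in each direction, those called by limma and the 4 brightest strand pairs. Members, lists and rules were chosen with earlier results of these data known. Alternatives were 75th-percentile scaling, quantile normalisation within each series, normexp with an offset of 50, the processed table, other detection filters, leaving out each array, and, chosen after seeing the data, Day 6 or Day 8 as the OGD reference and setting Day 4 aside in counts and bounds.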

Additional observations from a re-analysis of the deposited data

Results flagged for a closer look

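The number of members well above background on Day 4 (654) stood apart from those of the other 3 maturation arrays (309 to 336), with the gap to the nearest making up 0.922 of the whole range, above Dixon's critical value for 4 samples. About 1 in 20 such sets would stand apart by chance, and these 4 arrays are different days of culture. The Day 4 array also had the highest share of negative control spots well above background, 54.4%.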

How the results depend on the processing

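No paired analysis was possible because no condition had more than 1 array. Quantile normalisation within each series, normalisation without Day 4 (for comparisons not involving it) and the processed table kept every count of members past SLR 1 within 1.5 times its value. The members' median SLR stayed above 0 at 2, 4, 6 and 8 hr OGD relative to 0 hr OGD under each of these, and under 75th-percentile scaling, normexp and the filters that require detection. With no filter the members' medians at 4 and 8 hr, 0.01 and 0.14, were those of all probes, both set by the lowest normalised values. With Day 6 and Day 8 as the reference it turned to -0.16 and -0.030 at 6 hr. With these references 19 and 39 members were past SLR 1 at 2 hr, 10 and 24 at 4 hr, 6 and 6 at 6 hr and 15 and 27 at 8 hr.

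With normexp, which draws dim spots together, the members past SLR 1 numbered 15 on Day 4, 11 on Day 6 and 8 on Day 8 relative to Day 2, 2 on Day 8 relative to Day 6, and 22, 31, 15 and 34 at 2, 4, 6 and 8 hr OGD. On Day 6, 2.52% of members were then higher and 1.44% lower (all probes 1.45% and 1.64%). On Day 8 relative to Day 2 they were 1.06% and 1.76% (1.72% and 1.48%), and relative to Day 6 0.699% and 0% (1.12% and 0.163%). With 75th-percentile scaling 70 members were past SLR 1 on Day 4 and 43 at 6 hr. That scaling moved the median SLR of all probes from -0.36 to -0.48 on Day 4, from 0.08 to 0.25 on Day 6, from 0.01 to 0.14 on Day 8 and from 0.16 to 0.06 at 8 hr, where the members' medians became -0.55, 0.11, 0.03 and 0.75, and normexp moved it to -0.16 on Day 4. With detection required on 1 of the arrays compared, the counts were 256 on Day 4, 74 on Day 6 and 77 on Day 8. They were 34 on Day 8 relative to Day 6, and 210, 187 and 86 at 2, 4 and 6 hr. On Day 6, 9.84% of members were then higher and 10.4% lower (all probes 9.08% and 13.3%). On Day 8 relative to Day 2 the shares were 10.1% and 9.79% (11.2% and 13.4%). Relative to Day 6 they were 5.59% and 3.91% (5.52% and 2.55%). At 2 and 4 hr OGD 33.9% and 28.4% were higher (14.5% and 12.4%). The members' shares lower there were below the 16.1% and 13.4% of all probes. With no filter the counts were 304, 209, 196 and 159 in maturation and 277, 253, 190 and 294 in OGD. On Day 6, 9.29% of members were then higher and 7.89% lower (all probes 10.6% and 10.8%). On Day 8 relative to Day 2 they were 7.89% and 8.22% (11.04% and 11.30%). Relative to Day 6 they were 6.26% and 6.83% (6.75% and 5.82%). At 2 and 4 hr OGD 17.2% and 14.9% were higher (11.97% and 9.70%) and 5.59% and 5.92% lower (11.2% and 9.50%). At 6 and 8 hr 7.32% and 17.5% were higher (6.95% and 13.2%) and 8.31% and 6.66% lower (9.29% and 13.95%). With detection on all 9 arrays the counts over 217 members were 61 on Day 4, 5 on Day 8 relative to Day 6 and 80 at 2 hr. On Day 4, 1.38% were higher and 26.7% lower (all probes 6.10% and 18.8%). On Day 8 relative to Day 6 they were 0.461% and 1.84% (1.88% and 0.803%), and at 2 hr 30.4% and 6.45% (12.4% and 8.18%). With signals above the negative probes 29 members were past SLR 1 on Day 4. These filters leave fewer or more members to count.

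Members detected in maturation numbered 424 above the 95th percentile of the negative probes, 269 on all 4 arrays, 400 in the processed table and 403 with Day 4 left out. Detected in OGD on all 5 arrays were 220, and above the negative probes on all 9 arrays 134. The gap between members and other probes in median log2 signal was -0.28, -0.64, -0.53, -0.50, -0.53, -0.34, -0.34, -0.49 and -0.32 among detected probes from Day 2 to 8 hr OGD. Without a detection filter, 75th-percentile scaling gave a gap of -1.02 on Day 4, -1.31 on Day 6 and -1.59 at 0 hr. With quantile normalisation the unfiltered gaps on these arrays were -1.35, -1.17 and -1.42. At 6 and 8 hr, where no unfiltered gap is given above, the scaling gave -1.26 and -1.03.

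By limma, leaving out 1 array gave 0 to 2 members called. The call was also lost with 75th-percentile scaling (0 members; humanlincRNA1166+ at a difference of -1.57 and a limma adjusted p of 0.0518) and with detection on all 7 arrays (0, humanlincRNA1166+ not being among those tested). With no filter humanlincRNA1010- and humanlincRNA1926+ were called higher and humanlincRNA1518+ lower (named after their values were seen), and humanlincRNA1166+ was not called. That made 3 of 1217 members called in all, where 19 of all 59709 probes were called higher and 121 lower. The cause of these changes was not tested. Of 101 SLRs of named members past 1, 86 stayed past it with 75th-percentile scaling, 100 with normalisation within each series and 58 with normexp, and none of them changed sign. Over all 297 SLRs of named members, past 1 or not, the sign changed in 24 with 75th-percentile scaling and 11 with normexp, and in 3 of 295 with the processed table. Detection limits what can be said of dim members, since 481 were never above background.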
